A study of Mus musculus with 42 samples.

Results

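The mitochondrial chromosome carries genes for a small set of respiratory chain proteins, and 10 of them are described here by name: mt-Nd1, mt-Nd2, mt-Nd3, mt-Nd4 and mt-Nd5 of complex I, mt-Cytb of complex III, mt-Co1, mt-Co2 and mt-Co3 of complex IV and mt-Atp6 of complex V. They were chosen by gene name, with earlier results of these data known, and are 10 of the 37 genes annotated on this chromosome, 13 of which code for protein. All 10 had enough counts to be tested, among 15574 tested genes of 54446 in the count table.

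RNA was sequenced from the liver of 42 female APOE*3-Leiden mice, 1 library per mouse, at week 32 of the study. All mice carried the human APOE*3-Leiden transgene, which slows the clearance of lipoprotein remnants and makes the mouse respond to dietary cholesterol. Of these, 10 mice were fed chow as a healthy reference, 16 received a Western-type diet (WTD) of 1% cholesterol, 15% cocoa butter and 40.5% sucrose, and 16 were fed the same diet with atorvastatin, an inhibitor of HMG-CoA reductase. The WTD-fed mice were 8 to 14 weeks old at the start and were matched into the treated and untreated groups after 3 weeks on WTD, atorvastatin was given at 3.0 and from week 5 at 4.5 mg/kg/day, and both WTD groups received 0.05% sodium cholate from week 22. The chow-fed mice have a numbering series of their own and their age is not given in the labels, so any difference in origin or age cannot be told apart from the diet.

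The respiratory chain passes electrons from NADH and succinate to oxygen through complexes I to IV and uses the resulting proton gradient to drive ATP synthesis by complex V. Every one of these complexes except complex II is built from proteins of both genomes, so that a handful of mitochondrially encoded core subunits are assembled with many subunits imported from the cytosol. The mitochondrial genes are copied by their own RNA polymerase as long transcripts from both strands, which are then cut at the transfer RNAs that lie between the messages. Hepatocytes are rich in mitochondria, and the messages of these genes are among the most abundant in liver. A bulk library cannot tell fewer cells of a type from less RNA per cell.

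The sequences of the 10 genes decide how their counts can be read, because some exist a second time in the nuclear genome. On GRCm38, 7 annotated unprocessed pseudogenes stand side by side on the minus strand at chr1:24611535-24616197, a stretch of 4663 bases that follows the order of mt-Co1 (in part), mt-Co2, mt-Atp6, mt-Co3, mt-Nd3, mt-Nd4l and mt-Nd4 (in part) on the mitochondrial chromosome. The copy of mt-Co2, Gm28661, is identical to it over 681 bases, that of mt-Atp6, Gm10925, over 678 bases, and that of mt-Co3, Gm28437, over 783 bases. A less similar copy of mt-Co2 on chromosome 2, Gm13341, has 16 mismatches and is 97.6% identical. The following 61 bases of mt-Co2 (chrMT:7474-7534, plus strand), Gm28661 (chr1:24615044-24615104, minus strand) and Gm13341 (chr2:22587453-22587513, minus strand) are shown because they hold 7 bases at which Gm13341 differs, marked in capitals, while Gm28661 is identical to mt-Co2 at every base, so that no base here tells those 2 apart.
mt-Co2: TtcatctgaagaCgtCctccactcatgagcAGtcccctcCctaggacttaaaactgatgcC
Gm28661: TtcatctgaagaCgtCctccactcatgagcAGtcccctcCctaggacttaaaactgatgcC
Gm13341: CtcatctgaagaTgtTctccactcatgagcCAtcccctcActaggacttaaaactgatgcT
The first 60 bases of mt-Co3 (chrMT:8607-8666, plus strand) and mt-Atp6 (chrMT:7927-7986, plus strand) are shown with those of Gm28437 (chr1:24613912-24613971, minus strand) and Gm10925 (chr1:24614592-24614651, minus strand), where no base differs.
mt-Co3: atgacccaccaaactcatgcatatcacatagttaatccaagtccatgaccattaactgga
Gm28437: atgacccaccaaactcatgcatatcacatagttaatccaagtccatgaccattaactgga
mt-Atp6: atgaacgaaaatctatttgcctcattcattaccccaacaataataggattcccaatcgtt
Gm10925: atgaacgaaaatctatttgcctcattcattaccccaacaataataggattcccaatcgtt

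Reads were 150 bases long, and read pairs that aligned in more than 1 place were not counted. Of all windows of 150 bases in a gene, an exact copy elsewhere among the annotated transcripts was found for 99.8% in mt-Co3, 99.4% in mt-Co2, 99.4% in mt-Atp6 and 97.0% in mt-Nd3, for 59.2% in mt-Nd4 and 23.6% in mt-Co1, and for 0 windows in mt-Nd1, mt-Nd2, mt-Nd5 and mt-Cytb. The 4 genes with the most copied windows also had the lowest levels. In counts per 1000000 counts on tested genes (CPM) and per kb of gene, mt-Co1 stood 152-fold above mt-Co2, 159-fold above mt-Co3, 222-fold above mt-Atp6 and 1278-fold above mt-Nd3 in chow-fed mice. The counts of mt-Co2, mt-Co3, mt-Atp6 and mt-Nd3, called the 4 copied genes from here on, hold only the read pairs that aligned in 1 place, and they are given apart from the other 6 genes. The part of the copies in the low counts was not tested. mt-Atp8, which is 204 bases long and overlaps mt-Atp6, had 0 to 6 counts per mouse. Its 0 copied windows hold for annotated transcripts only. The sequence between the annotated copies on chromosome 1 was not searched, so a copy of mt-Atp8 there would have been missed. Read pairs that fell on more than 1 gene were also left out as ambiguous, 5.43 to 6.57% of all read pairs per library. Of the 681 bases of mt-Atp6, 44 are shared with neighbouring genes on its strand. The part of such pairs in the low counts was not tested. The line between the groups was drawn at 90% of windows, after the values were known. The share of all read pairs that aligned in more than 1 place was itself 4.69 to 5.36% in chow-fed, 4.07 to 4.71% in WTD-fed and 4.41 to 5.11% in atorvastatin-treated mice.

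**Figure D1:**
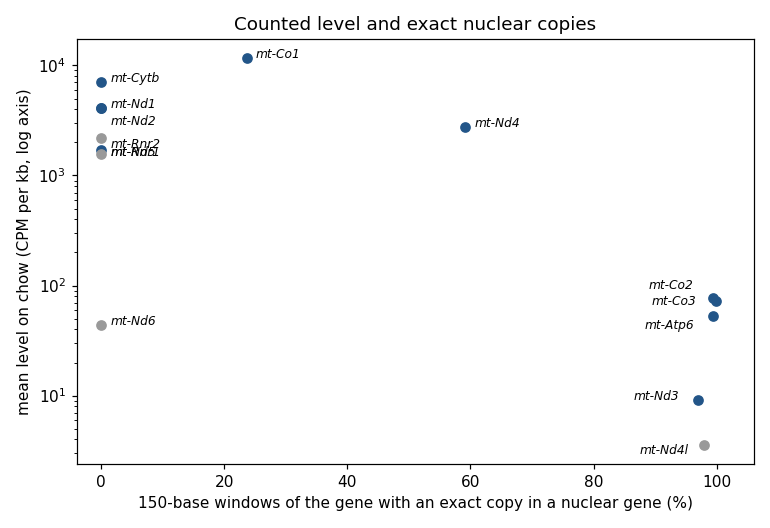
Percentage of 150-base windows of each mitochondrial gene with an exact copy among other annotated transcripts (x axis) against the mean level in the 10 chow-fed mice in CPM per kb (y axis, log scale); grey points are mitochondrial genes outside the 10 described. The 4 genes with over 90% of windows copied lie at 9.11 to 76.5 CPM per kb and the other 6 at 1720 to 11633 CPM per kb.

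The libraries held 15661381 to 36224054 counts on genes, so counting error is small for the 6 abundant genes and larger for mt-Nd3. In 9 libraries, 3 of chow-fed mice (mice 2, 5 and 6), 5 of WTD-fed mice (mice 10, 11, 13, 20 and 21) and 1 of an atorvastatin-treated mouse (mouse 29), over 20% of weakly expressed genes had no count, and results are given without them where they change. CPM were adjusted throughout by the trimmed mean of M-values (TMM), a factor that had a median of 0.887 in chow-fed, 1.10 in WTD-fed and 0.948 in atorvastatin-treated mice. The choice matters for these genes. With total counts as the only scaling, an alternative chosen after the data had been seen, the median log2 fold change of all tested genes moved from 0.03 to 0.34 in WTD against chow, from 0.00 to -0.16 in atorvastatin against WTD and from 0.04 to 0.20 in atorvastatin against chow.

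All 10 genes had a lower level in WTD-fed than in chow-fed mice, and 8 were called lower by edgeR's quasi-likelihood test at a Benjamini-Hochberg adjusted p under 0.01. Of all tested genes 33.5% were called in this comparison and 16.0% were called lower. The median log2 fold change of the 10 genes was -0.63, against 0.03 for all tested genes. Among the 6 abundant genes 5 fell, with a median of -0.41, and among the 4 copied genes 3 fell, with a median of -0.76. Leaving out the 9 libraries with missed weak genes also gave 8 genes called. With total counts as scaling, 4 genes were called, namely mt-Co1, mt-Nd4, mt-Co2 and mt-Atp6, and the sign of mt-Nd5 turned. Of all 15574 tested genes 5148 were then called higher and 1101 lower.

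With atorvastatin, the 6 abundant genes were higher than on WTD alone. All 6 rose, by a median log2 fold change of 0.43, and in all 16 treated mice each of them lay above the median of the untreated WTD-fed mice. Of the 4 copied genes 1, mt-Co3, was called lower and the other 3 had negative values, with a median of -0.48 for the 4. In this comparison 7.10% of all tested genes were called, 4.84% higher and 2.26% lower, and the median of all genes was 0.00. All 6 abundant genes were also called higher with total counts as scaling, where 330 of all 15574 tested genes were called higher. Without the 9 libraries with missed weak genes 6 genes were called and the loss was that of mt-Co3. Against chow-fed mice, 5 genes were called in atorvastatin-treated mice, mt-Nd5 higher and the 4 copied genes lower, where 25.0% of all tested genes were called, 14.2% higher and 10.7% lower. Both comparisons with atorvastatin share its 16 mice, and both with WTD share its 16 mice, so that the 3 sets of values are not independent.

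**Figure D2:**
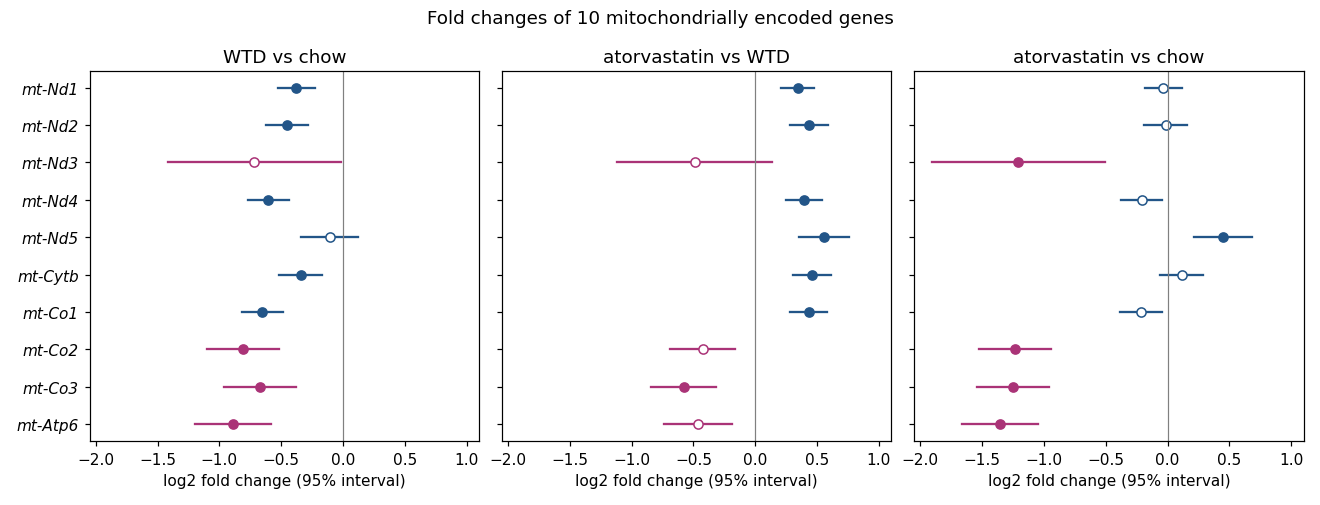
Log2 fold changes of the 10 genes with 95% confidence intervals in the 3 comparisons (edgeR, 10 chow-fed, 16 WTD-fed and 16 atorvastatin-treated mice); filled points are called at an adjusted p under 0.01, purple marks the 4 genes with over 90% of windows copied and blue the other 6. In atorvastatin against WTD the 6 blue genes lie between 0.34 and 0.56 and the 4 purple genes between -0.58 and -0.43.

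Complex I takes electrons from NADH, and the ND subunits form its proton-pumping membrane arm. For mt-Nd1 (chrMT:2751-3707, plus strand) the lowest, median and highest mouse had 3589, 3899 and 4747 CPM on chow, 2446, 2940 and 4389 CPM on WTD and 3212, 3824 and 4488 CPM with atorvastatin. On WTD 15 of 16 mice lay below every chow-fed mouse, the exception being mouse 20, while the atorvastatin-treated mice overlapped with the chow-fed group. The log2 fold change was -0.38 (SE 0.07, edgeR with Benjamini-Hochberg adjusted p = 3.2e-05) in WTD against chow and 0.34 (SE 0.07, adjusted p = 0.00022) in atorvastatin against WTD. In atorvastatin against chow it was -0.03 with a 95% interval of -0.19 to 0.12 (adjusted p = 0.77), so a change of more than this interval was not seen in either direction.

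mt-Nd2 (chrMT:3914-4951, plus strand) behaved much the same, with 3473, 4205 and 5444 CPM on chow, 2312, 2998 and 4909 CPM on WTD and 3382, 4107 and 5209 CPM with atorvastatin (lowest, median and highest mouse). It fell by 0.45 on the log2 scale on WTD (SE 0.09, edgeR with Benjamini-Hochberg adjusted p = 1.8e-05) with 14 of 16 mice below every chow-fed mouse. With atorvastatin it rose by 0.44 (SE 0.08, adjusted p = 7.5e-05) against WTD, and its difference from chow was -0.02 (95% interval -0.19 to 0.16, adjusted p = 0.92).

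mt-Nd4 (chrMT:10167-11544, plus strand) showed the strongest fall among the abundant complex I genes. However, 59.2% of its windows are copied, against 0 in mt-Nd1, mt-Nd2 and mt-Nd5. The only other abundant gene with copied windows, mt-Co1 (23.6%), had the strongest fall of the 6 (-0.65). The part of the copies in these falls was not tested. Its levels were 3168, 3778 and 4467 CPM on chow, 1796, 2432 and 3668 CPM on WTD and 2696, 3253 and 4314 CPM with atorvastatin. On WTD 15 of 16 mice lay below all chow-fed mice, at a log2 fold change of -0.60 (SE 0.08, edgeR with Benjamini-Hochberg adjusted p = 2.5e-08). Atorvastatin-treated mice were higher than WTD-fed mice by 0.39 (SE 0.07) and stood at -0.21 against chow (SE 0.08, adjusted p = 0.045), which did not pass the threshold.

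mt-Nd5 (chrMT:11742-13565, plus strand) was the only abundant gene not called in WTD against chow. It had 2330, 3090 and 4083 CPM on chow and 1527, 2812 and 4518 CPM on WTD, so that both groups overlapped over nearly their whole range. The log2 fold change was -0.11 (SE 0.11, 95% interval -0.34 to 0.12, edgeR with Benjamini-Hochberg adjusted p = 0.47) with TMM scaling and 0.19 with total counts, and neither passed. With atorvastatin it had 3021, 4220 and 6138 CPM, it rose by 0.56 (SE 0.10, adjusted p = 0.00012) against WTD and by 0.45 (SE 0.12, adjusted p = 0.0017) against chow. In this last comparison 10 of 16 treated mice lay above every chow-fed mouse. With the share of missed weak genes as a covariate the difference from chow was 0.40 (adjusted p = 0.011) and was no longer called.

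mt-Nd3 (chrMT:9459-9806, plus strand), a copied gene, had 1.58, 3.20 and 5.25 CPM on chow, 0.915, 1.63 and 5.89 CPM on WTD and 0.540, 1.17 and 2.86 CPM with atorvastatin. At these few counts its error was the largest of the 10, with log2 fold changes of -0.72 (SE 0.35, edgeR with Benjamini-Hochberg adjusted p = 0.091) in WTD against chow and -0.49 (SE 0.31, adjusted p = 0.36) in atorvastatin against WTD. In atorvastatin against chow it was called at -1.21 (SE 0.35, adjusted p = 0.0048), and the call was lost without chow-fed mouse 3 (-1.15, adjusted p = 0.011) or mouse 6 (-1.10, adjusted p = 0.013), with missed weak genes as covariate (-1.05, adjusted p = 0.019), with no filter (-1.19, adjusted p = 0.014) and with total counts (-1.02, adjusted p = 0.021).

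Complex III hands electrons from ubiquinol to cytochrome c, and cytochrome b is its sole mitochondrially encoded subunit. mt-Cytb (chrMT:14145-15288, plus strand) had 6991, 8156 and 10201 CPM on chow, 4877, 6441 and 9540 CPM on WTD and 7225, 8850 and 11128 CPM with atorvastatin. On WTD 13 of 16 mice lay below all chow-fed mice and the log2 fold change was -0.34 (SE 0.09, edgeR with Benjamini-Hochberg adjusted p = 0.00077). With atorvastatin mt-Cytb rose by 0.46 (SE 0.08, adjusted p = 4.0e-05) against WTD, while the difference from chow was 0.12 (95% interval -0.06 to 0.29, adjusted p = 0.32). With total counts as scaling its difference between WTD and chow was -0.04 and was not called, and that between atorvastatin and chow was 0.26 and was called (adjusted p = 0.00057).

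Complex IV reduces oxygen to water, and subunit I, the product of mt-Co1, carries its catalytic haem and copper centre. mt-Co1 (chrMT:5328-6872, plus strand) was the most abundant of the 10 genes, with 15983, 17435 and 21135 CPM on chow, 7896, 11374 and 16552 CPM on WTD and 12508, 15057 and 21401 CPM with atorvastatin. It fell by 0.65 on the log2 scale on WTD (SE 0.08, edgeR with Benjamini-Hochberg adjusted p = 4.8e-09), where 15 of 16 mice lay below every chow-fed mouse, and by 0.35 with total counts (adjusted p = 4.4e-06). With atorvastatin it rose by 0.43 (SE 0.07, adjusted p = 6.5e-05) against WTD. Against chow it was at -0.22 (SE 0.08, adjusted p = 0.038), which did not pass the threshold, with 10 of 16 treated mice below all chow-fed mice. Over the alternatives other than leaving out 1 mouse, this difference ranged from -0.28 to -0.08.

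The copied genes of complexes IV and V had their lowest medians with atorvastatin. mt-Co2 (chrMT:7013-7696, plus strand), which encodes the subunit that receives electrons from cytochrome c, had 42.0, 52.2 and 63.3 CPM on chow, 14.3, 31.5 and 44.2 CPM on WTD and 15.0, 20.5 and 37.7 CPM with atorvastatin. Its log2 fold change was -0.81 in WTD against chow (edgeR with Benjamini-Hochberg adjusted p = 7.2e-06), -0.43 in atorvastatin against WTD (SE 0.13, adjusted p = 0.020) and -1.23 in atorvastatin against chow (adjusted p = 1.3e-09), and no treated mouse overlapped with a chow-fed mouse. mt-Co3 (chrMT:8607-9390, plus strand), a core subunit without a redox centre, had 49.9, 56.4 and 68.4 CPM on chow, 18.1, 38.5 and 55.2 CPM on WTD and 15.3, 21.3 and 43.4 CPM with atorvastatin. Its values were -0.67 (SE 0.14, adjusted p = 0.00014), -0.58 (SE 0.13, adjusted p = 0.0014) and -1.25 (SE 0.14, adjusted p = 1.0e-09) in the same order. Without the 9 libraries with missed weak genes mt-Co3 was at -0.41 in atorvastatin against WTD (adjusted p = 0.058).

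Complex V makes ATP, and subunit a, the product of mt-Atp6, forms its proton channel. mt-Atp6 (chrMT:7927-8607, plus strand) had 29.1, 33.8 and 42.8 CPM on chow, 8.48, 19.0 and 31.0 CPM on WTD and 10.2, 12.4 and 22.8 CPM with atorvastatin. The log2 fold changes were -0.89 (edgeR with Benjamini-Hochberg adjusted p = 2.7e-06), -0.47 (SE 0.14, adjusted p = 0.015) and -1.35 (adjusted p = 3.1e-10) for WTD against chow, atorvastatin against WTD and atorvastatin against chow. For mt-Co2, mt-Co3 and mt-Atp6 alike, 16 of 16 treated mice lay below every chow-fed mouse. The same held for Ndufb6, Ndufb11, Uqcrfs1, Cox5b, Atp5d and Phb2, nuclear genes named below, so this separation is not particular to the copied genes. The share of all tested genes separated in this way is not given here. The differences of mt-Co2 and mt-Atp6 between atorvastatin and WTD lay near the threshold. Both were called with DESeq2, with total counts as scaling and with at least 10 counts required in every mouse, which gave 9 of the 10 genes called each, and that of mt-Atp6 also with DESeq2's size factors in edgeR, at values from -0.61 to -0.46 in all. In edgeR with TMM, that of mt-Co2 was called when WTD-fed mouse 9 or 19 or treated mouse 22, 23 or 31 was left out, with values from -0.50 to -0.47, and that of mt-Atp6 when any of these or treated mouse 32 was left out, with values from -0.53 to -0.50.

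**Figure D3:**
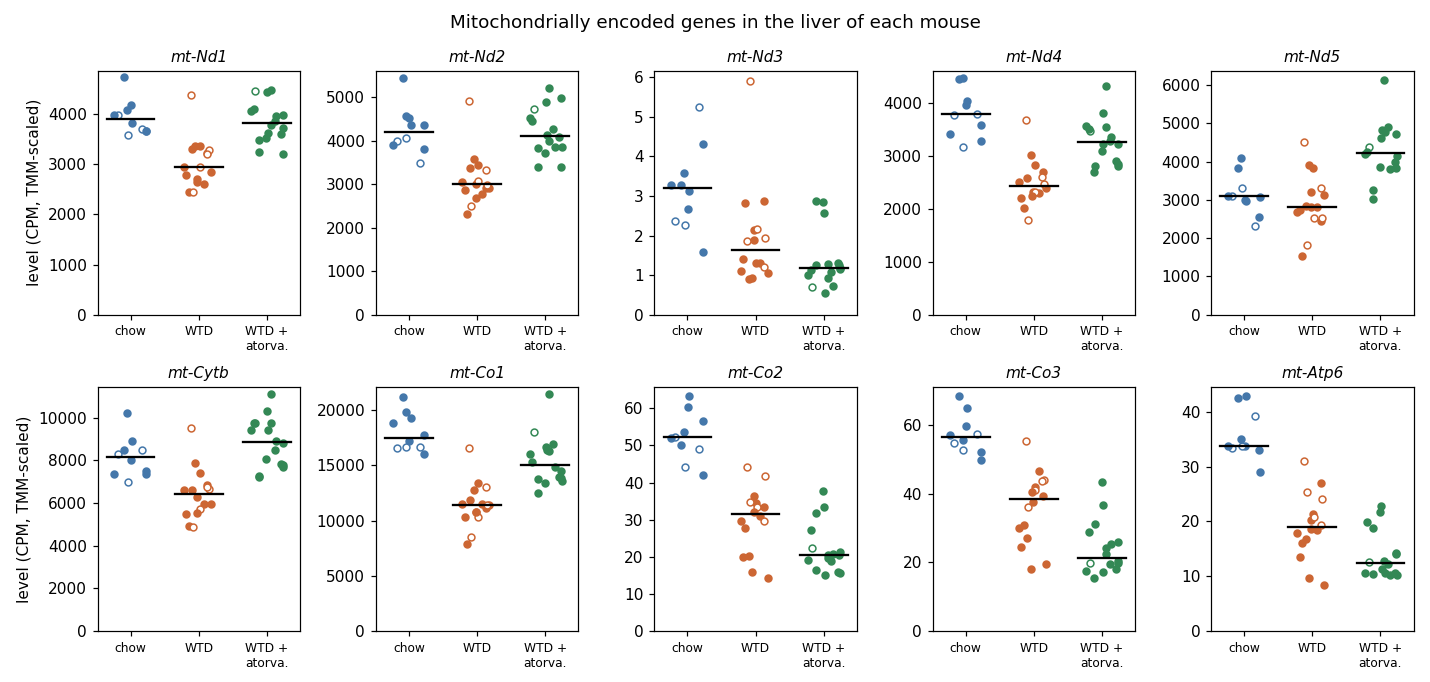
Level of each of the 10 genes in every mouse in CPM (TMM scaled) for 10 chow-fed, 16 WTD-fed and 16 atorvastatin-treated mice; black bars are group medians and open circles are the 9 libraries in which over 20% of weak genes had no count. The 6 abundant genes have a lower median on WTD than in the atorvastatin-treated group, whereas the medians of mt-Nd3, mt-Co2, mt-Co3 and mt-Atp6 are lowest with atorvastatin, of which only mt-Co3 was called against WTD.

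Levels of different genes were compared per kb of full gene length, for read pairs that aligned in 1 place only. Since 59.2% of windows of mt-Nd4 and 23.6% of mt-Co1 are copied, against 0 in mt-Nd1, mt-Nd2, mt-Nd5 and mt-Cytb, the places of mt-Nd4 and mt-Co1 in the order hold within this limit. In chow-fed mice the order was mt-Co1 at 11633 ± 1098 CPM per kb (SD, n = 10), mt-Cytb at 7139 ± 827, mt-Nd1 at 4118 ± 362, mt-Nd2 at 4091 ± 522, mt-Nd4 at 2749 ± 326 and mt-Nd5 at 1720 ± 285. Neighbours in this order were separated in all 10 mice except mt-Nd1 and mt-Nd2, where mt-Nd1 was above mt-Nd2 in 5 of 10 mice. The end of the order changed between groups. mt-Nd4 was above mt-Nd5 in 10 of 10 chow-fed mice and in 14 of 16 WTD-fed mice, but in 9 of 16 atorvastatin-treated mice, whose means were 2377 ± 312 and 2352 ± 401 CPM per kb (SD, n = 16). The 4 copied genes followed at 76.5 (mt-Co2), 73.0 (mt-Co3), 52.4 (mt-Atp6) and 9.11 (mt-Nd3) CPM per kb on chow.

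The mixture of messages shifted as well. mt-Co1 made up 43.4 ± 1.55% of the counts of the 10 genes on chow (SD, n = 10), 38.8 ± 1.13% on WTD and 38.6 ± 1.28% with atorvastatin (SD, n = 16 each). mt-Nd5 went the other way, from 7.56 ± 0.840% on chow to 9.76 ± 1.23% on WTD and 10.7 ± 1.05% with atorvastatin. mt-Cytb made up 19.7 ± 1.48%, 21.8 ± 0.881% and 22.1 ± 0.868%. These shares do not depend on the scaling of libraries. Atorvastatin-treated mice stood nearer to WTD-fed than to chow-fed mice in these 3, which are a selection of the 10 genes. In mt-Nd1 they stood nearer to chow-fed mice, with 9.53 ± 0.513% on chow, 10.3 ± 0.672% on WTD and 9.66 ± 0.581% with atorvastatin. mt-Nd2 had 10.3 ± 0.840%, 10.5 ± 0.524% and 10.5 ± 0.838% in the same order. mt-Nd4 had 9.14 ± 0.560%, 8.47 ± 0.383% and 8.19 ± 0.320%, and both were nearer to WTD.

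The share of all counts that came from the 10 genes was 3.30 to 4.44% on chow (mean 3.66%), 2.42 to 4.00% on WTD (mean 3.22%) and 3.56 to 4.69% with atorvastatin (mean 3.90%). The summed level of the 6 abundant genes was 41253 ± 3773 CPM on chow (SD, n = 10), 29424 ± 5228 CPM on WTD and 39909 ± 5064 CPM with atorvastatin (SD, n = 16 each). The mean on WTD was thus 0.713 of that on chow with TMM scaling, whereas the unscaled share was 0.880 of it. On WTD, mouse 20 had the highest level of 9 of the 10 genes, and its library is among the 9 with missed weak genes.

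Within groups the 6 abundant genes varied together. After removal of group means, the log2 CPM of the 15 pairs among them correlated at 0.66 to 0.96 over the 42 mice (median 0.84). The 6 pairs of copied genes had correlations of 0.36 to 0.90 (median 0.69), and the 24 mixed pairs had -0.52 to 0.23 (median 0.09). These are descriptions over libraries that share depth and RNA quality, and for neighbouring genes also a primary transcript.

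Other products of the mitochondrial chromosome were read beside the 10 genes. The ribosomal RNAs have a mean of 2087 CPM (mt-Rnr1, the small subunit) and 2454 CPM (mt-Rnr2, the large subunit) on chow, 1254 and 1637 CPM on WTD and 1554 and 1959 CPM with atorvastatin. mt-Rnr1 fell by 0.73 on WTD (edgeR with Benjamini-Hochberg adjusted p = 2.3e-09) and mt-Rnr2 by 0.58 (adjusted p = 1.3e-05). With atorvastatin mt-Rnr1 was 0.31 higher than on WTD (adjusted p = 0.0066), a call that was lost for 12 of the 42 mice when each was left out in turn, and mt-Rnr2 was at 0.26 (adjusted p = 0.068). mt-Nd6, the complex I gene read from the opposite strand, was at -0.61 on WTD (adjusted p = 0.0054) and at 0.36 with atorvastatin against WTD (adjusted p = 0.16), and the first call was lost without chow-fed mouse 2, 4, 7 or 8, at values from -0.57 to -0.49. mt-Nd4l, another copied gene with a mean of 1.07 CPM on chow, was not called in any comparison. mt-Atp8 had 0 to 6 counts per mouse and was not tested. Of 22 transfer RNA genes 8 had any count and 4 were tested, of which 0 were called. Of all tested genes 33.5% were called in WTD against chow, 7.10% in atorvastatin against WTD and 25.0% in atorvastatin against chow. The libraries were made from polyadenylated RNA, and the level of an RNA in them also reflects how much of it carried a poly(A) tail.

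The nuclear copies have levels of the same order as the copied genes. Gm28661 had a mean of 43.1 CPM on chow, 26.6 CPM on WTD and 25.3 CPM with atorvastatin, Gm10925 had 51.4, 32.0 and 33.2 CPM and Gm28437 had 26.3, 19.0 and 16.3 CPM. Their log2 fold changes on WTD were -0.70, -0.69 and -0.46. In atorvastatin against WTD they were -0.07 (edgeR with Benjamini-Hochberg adjusted p = 0.74), 0.06 (adjusted p = 0.76) and -0.22 (adjusted p = 0.16). In this comparison 0 of the copies were called, where 7.10% of all tested genes were called, so few calls would be met among so few genes in any case. How the read pairs of a gene and its copy were divided was not tested, and the copies' values are uncertain for the same reason as those of the copied genes.

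The nuclear genome encodes the other subunits of complexes I, III, IV and V, and 71 of them were tested. On WTD 65 of 71 fell and 0 rose, with a median log2 fold change of -0.56, where 16.0% of all genes were called lower. By complex, 30 of 35 fell in complex I (median -0.63), 9 of 9 in complex III (-0.59), 10 of 10 in complex IV (-0.54) and 16 of 17 in complex V (-0.56). With total counts as scaling 31 of 71 were called lower and 0 higher, where 1101 of all 15574 genes were called lower and 5148 higher. The median of the 71 was then -0.25 where that of all genes was 0.34. The examples with the smallest p were Ndufs3 (-0.78), an iron-sulfur-arm core subunit, with Ndufb11 (-0.78) and Ndufb6 (-0.85) of the membrane arm, Uqcrc1 (-0.69), the Rieske protein Uqcrfs1 (-0.53) and cytochrome c1 (Cyc1, -0.59), Cox5b (-0.76), Cox6b1 (-0.55) and Cox7b (-0.68), and the ATP synthase subunits Atp5g1 (-0.76), Atp5g3 (-0.65) and Atp5d (-0.56). Complex II, which is wholly nuclear encoded, had 3 of 4 genes lower, among them its iron-sulfur subunit Sdhb (-0.72).

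In atorvastatin against WTD 2 of 71 nuclear subunits were called higher and 1 lower, where 4.84% of all genes were called higher and 2.26% lower, and their median was 0.00. Ndufs1 (0.34, edgeR with Benjamini-Hochberg adjusted p = 0.00067), the largest subunit of complex I, and Uqcrc1 (0.30, adjusted p = 0.00090) were the 2 that rose. Ndufs4 was the 1 that fell (-0.28, adjusted p = 0.0087), and its call was lost for 20 of the 42 mice when each was left out in turn. The catalytic flavoprotein of complex II, Sdha, rose by 0.28 (adjusted p = 0.0022). With total counts as scaling 0 of the 71 were called higher and 9 lower, where 330 of all 15574 genes were called higher and 1022 lower. The median of the 71 was then -0.17 where that of all genes was -0.16. The difference between the mitochondrial and the nuclear subunits was not itself tested. The summed level of the nuclear subunits, complex II included, was 12052 CPM on chow, 8574 CPM on WTD and 9092 CPM with atorvastatin (means of 10, 16 and 16 mice).

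**Figure D4:**
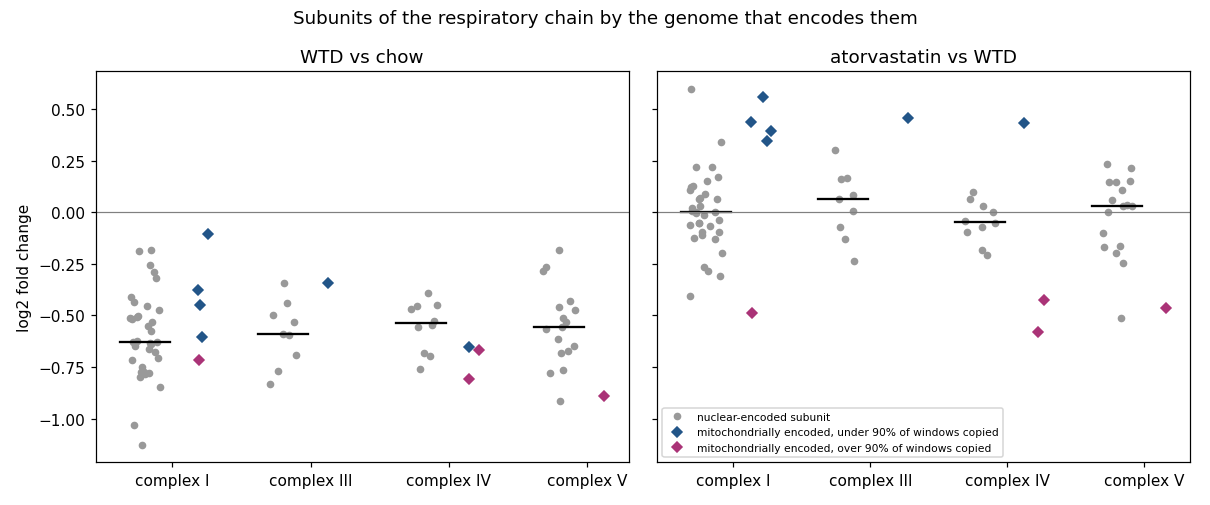
Log2 fold changes of nuclear-encoded subunits (grey, bar at the median) and of mitochondrially encoded subunits (diamonds, blue for the 6 abundant and purple for the 4 copied genes) in complexes I, III, IV and V, for WTD against chow and atorvastatin against WTD. On WTD both kinds lie mostly below 0; with atorvastatin the grey medians lie between -0.05 and 0.06 and the blue diamonds between 0.34 and 0.56.

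Genes that copy, process and maintain the mitochondrial genome were read from lists of their own. Of 11 transcription genes 1 fell on WTD, where 16.0% of all tested genes were called lower. With atorvastatin against WTD 0 were called, where 7.10% of all tested genes were called. The 1 that fell was Mrpl12 (-0.44, edgeR with Benjamini-Hochberg adjusted p = 0.00041), a ribosomal protein that also binds the polymerase. Tfb2m, which opens the promoter, was at -0.31 (adjusted p = 0.011). Tfam, which packages the DNA, and Polrmt, the polymerase, were at -0.21 (adjusted p = 0.13) and -0.09 (adjusted p = 0.60), and with total counts as scaling their signs turned to 0.10 and 0.23. Both were picked for their role and not by the naming rule.

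Of 21 genes of mitochondrial RNA processing and stability 5 fell and 1 rose on WTD, where 16.0% of all genes were called lower and 17.5% higher, and 3 rose with atorvastatin, where 4.84% of all genes were called higher. Hsd17b10, a subunit of the enzyme that cuts transfer RNA 5′ ends, fell by 0.61 and the oligoribonuclease Rexo2 by 0.36. The 3 that rose with atorvastatin were Fastkd1 (0.46, edgeR with Benjamini-Hochberg adjusted p = 0.0022), Lrpprc (0.33, adjusted p = 0.0019), which stabilises mitochondrial messages, and Grsf1 (0.27, adjusted p = 0.0027), an RNA granule protein. On WTD Fastkd1 was at -0.67, Lrpprc at -0.05 and Grsf1 at -0.26 (adjusted p = 0.0030), the last of which was lost without chow-fed mouse 4 (-0.21, adjusted p = 0.016). With total counts as scaling 0 of the 21 were called higher with atorvastatin, and on WTD 4 were called higher and 1 lower. Of all 15574 tested genes, 330 were then called higher with atorvastatin, and 5148 higher and 1101 lower on WTD.

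The next counts stand beside the same shares over all genes, 16.0% lower and 17.5% higher on WTD and 4.84% higher with atorvastatin. Of 13 genes of mitochondrial DNA maintenance 5 fell on WTD, among them the polymerase accessory subunit Polg2 (-0.88), the topoisomerase Top1mt (-0.40) and the nucleoside kinase Dguok (-0.52), and 0 were called with atorvastatin. Of 8 biogenesis regulators 0 were called on WTD, and 1, Yy1 (0.28, edgeR with Benjamini-Hochberg adjusted p = 0.0039), rose with atorvastatin, while Ppargc1b, a coactivator of mitochondrial genes, was at 0.52 (adjusted p = 0.038). Of 12 translation factors 4 fell on WTD, among them Tufm (-0.58) and Gfm2 (-0.51). Of 14 markers often read as mitochondrial mass 4 fell and 1 rose on WTD. Phb2 (-0.50) and the chaperonin Hspd1 (-0.37) were among those that fell, Tomm20 (0.45), an import receptor, was the 1 that rose, and citrate synthase (Cs) was the 1 that rose with atorvastatin (0.34, adjusted p = 0.0047). Under total counts the mass markers split the other way on WTD, with 7 of 14 called higher and 1 lower. All genes shifted too under this scaling, with 5148 of 15574 called higher, 1101 lower and a median of 0.34.

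Markers of cell types were read in the same comparisons. Of all tested genes 17.5% were called higher and 16.0% lower on WTD, and 4.84% higher and 2.26% lower with atorvastatin against WTD. All 10 hepatocyte markers fell on WTD and 7 of 10 rose with atorvastatin, and their summed level was 109679 to 164322 CPM on chow, 52290 to 108103 CPM on WTD and 64156 to 131465 CPM with atorvastatin. Macrophage markers rose in 5 of 6 cases on WTD with 1 lower, and 3 of 6 fell with atorvastatin, with summed levels of 154 to 229, 800 to 1980 and 614 to 1349 CPM. On WTD markers of lipid-associated macrophages (5 of 5), cholangiocytes (5 of 5), stellate cells and myofibroblasts (4 of 7), neutrophils (3 of 3 tested of 6, with Mpo, Elane and Ly6g under 1 CPM) and Kupffer cells (2 of 5) also rose, sinusoidal endothelium had 1 higher and 2 lower of 5, B cells had 1 lower of 5 and T cells had 0 called of 6. Spp1 is on both the lipid-associated macrophage and the cholangiocyte list. The summed B cell markers were 1413 CPM in chow-fed mouse 1 and 11.8 to 51.1 CPM in the other chow-fed mice. When 1 mouse was left out, 0 or 1 B cell marker was called lower, and their median log2 fold change ranged from -1.06 to 0.23. With atorvastatin against WTD, 3 of 5 markers of lipid-associated macrophages, 2 of 7 of stellate cells and myofibroblasts and 1 of 5 of cholangiocytes fell, 2 of 5 of sinusoidal endothelium rose, Kupffer cells had 1 higher and 1 lower, and neutrophils, T cells and B cells had 0 called.

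Within groups, the summed level of the 6 abundant genes was set beside the hepatocyte sum. Over 16 WTD-fed mice r was 0.86 (rho 0.68), but the WTD-fed mouse 20 was far above the others in both sums, and without the mice farthest from the median, mice 2 and 20, r was 0.51. Over 16 atorvastatin-treated mice r was 0.81 (rho 0.84) and 0.82 without mice 23 and 25. Over 10 chow-fed mice r was 0.23 (rho -0.02) and -0.06 without mice 6 and 7. With the sum of lipid-associated macrophage markers r was -0.84 on WTD, -0.74 with atorvastatin and -0.14 on chow, and -0.56, -0.65 and -0.13 without the 2 farthest mice of each group. With the nuclear subunits r was 0.51, 0.66 and -0.51, and 0.29, 0.62 and 0.03 without the 2 farthest mice. With the share of missed weak genes r was -0.05 on WTD, 0.06 with atorvastatin and -0.41 on chow. With the share of read pairs that aligned in more than 1 place it was 0.66, 0.69 and 0.57. Other cell types had similar values. In atorvastatin-treated mice r was -0.73 for stellate cells and myofibroblasts, -0.73 for neutrophils, -0.72 for macrophages, 0.71 for sinusoidal endothelium and -0.68 for cholangiocytes. For the same cell types in this order r was -0.53, -0.18, -0.62, 0.51 and -0.61 on WTD and -0.17, 0.05, 0.25, 0.03 and -0.21 on chow. Kupffer, T and B cells were at 0.14, -0.03 and 0.03 with atorvastatin. The sum of the 4 copied genes correlated with the hepatocyte sum at 0.54 on WTD, -0.35 with atorvastatin and 0.22 on chow. These correlations are given as a description of libraries that share their scaling, and the part of cell composition in the differences between groups was not tested.

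**Figure D5:**
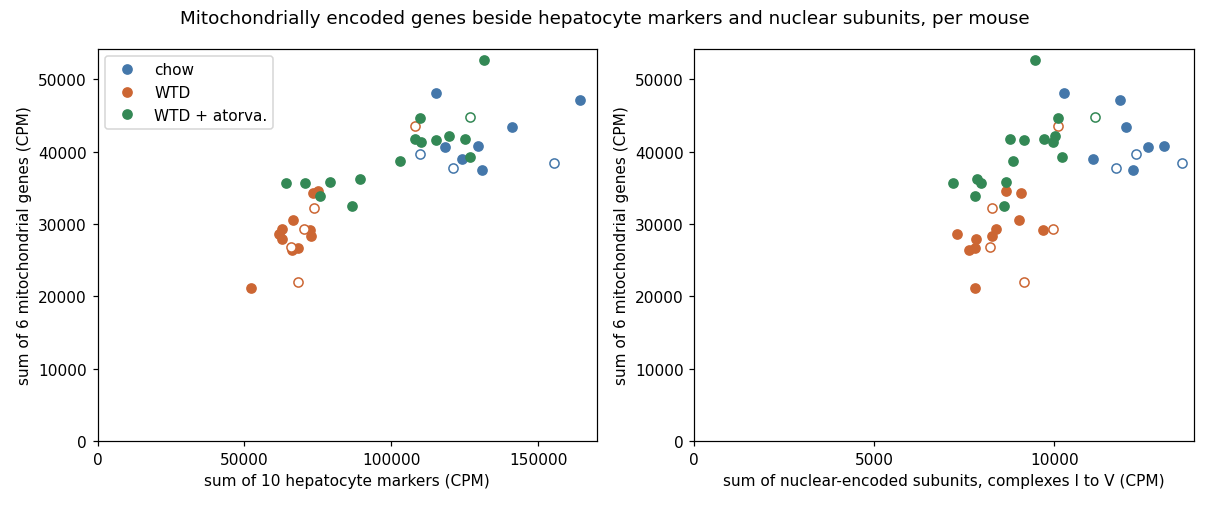
Summed level of the 6 abundant mitochondrial genes in CPM (y axis) against the summed level of 10 hepatocyte markers and of the nuclear-encoded subunits of complexes I to V in CPM (x axes) in each of the 42 mice, coloured by group; open circles are the 9 libraries with missed weak genes. Atorvastatin-treated mice rise from lower left to upper right in the panel of hepatocyte markers (r = 0.81), and the open orange circle that lies among them is WTD-fed mouse 20.

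Genes elsewhere in the genome were ranked by the likeness of their log2 CPM to the mean of the 10 genes over the 42 mice, after removal of group means. The 5 closest were Adk (r = 0.70), Riok2 (r = 0.66), Maob (r = 0.63), Mgst1 (r = 0.62) and S1pr1 (r = 0.61). Ranked against the 6 abundant genes alone, a profile chosen after the values were seen, the closest were Cat (r = 0.82), Sdha (r = 0.81), Cyp2j5 (r = 0.79), Abat (r = 0.79) and Mttp (r = 0.78). Among these, Sdha is the flavoprotein of complex II named above, Cat is the peroxisomal catalase and Mttp loads lipid onto apolipoprotein B.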

How the data were processed

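Polyadenylated liver RNA was sequenced as strand-specific 150-base read pairs. Per the study's methods and the submitters' processing notes, the authors aligned reads to GRCm38 with STAR 2.5 and counted read pairs per gene with HTSeq 0.6.1p1. The deposited values are raw counts. The strand setting of the counting is not given in the sources used here. Groups came from the sample labels. Genes were named with GENCODE M21, which matched 54409 of 54446. Counts were filtered with filterByExpr (at least 10 counts, 15 in total), scaled by TMM and fitted over all 42 mice with edgeR 4.0.16 (robust quasi-likelihood) in R 4.3.3. P-values were Benjamini-Hochberg adjusted over all tested genes, and called means under 0.01. The scripts were tested on simulated data. Exact copies were searched in all GENCODE M21 transcripts in windows of 150 bases. The naming rule took the 10 genes, the other mitochondrial genes, the copies, the 3 genes of each pathway list with the smallest p in WTD against chow and in atorvastatin against WTD, and the 5 genes most alike. The text gives a selection of these. The members and lists were chosen with earlier results of these data known. Alternatives used DESeq2 1.42.0, limma 3.58.1, other scalings, filters and subsets of mice.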

Additional observations from a re-analysis of the deposited data

Results flagged for a closer look

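Among the 10 genes in the chow-fed group, the only group small enough for this check (10 mice), 1 gene had a mouse that lay far from the rest. mt-Nd1 reached 4747 CPM in chow-fed mouse 4, while the other 9 mice had 3589 to 4188 CPM, and the gap to the next mouse was 0.483 of the whole range, above Dixon's 95% critical value for 10 samples. Chance gives such a value in about 1 in 20 groups, and 10 genes were looked at. They were measured in the same 10 mice, so the 10 looks are not independent. Mouse 4 was also the highest chow-fed mouse for mt-Nd2, mt-Co1 and mt-Co3. Without this mouse mt-Nd1 kept its direction and its call in WTD against chow.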

How the results depend on the processing

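Low counts limit mt-Nd3, mt-Nd4l and mt-Atp8, and the part of reads that align in more than 1 place in the levels of the 4 copied genes was not tested. No paired analysis was possible because the mouse numbers belong to different animals in each group. Genes called in atorvastatin against WTD numbered 1106, and 3145 with limma-voom, 1664 without the 9 libraries and 2021 at an adjusted p under 0.05. Leaving out 1 mouse gave 4952 to 5384 genes in WTD against chow, 913 to 1575 in atorvastatin against WTD (1575 without WTD-fed mouse 20) and 3651 to 4101 in atorvastatin against chow, and called 8, 7 to 9 and 4 to 5 of the 10 genes. Of the 10 genes, 4 were called in WTD against chow with total counts, and 3 in atorvastatin against chow with missed weak genes as covariate. The split of higher and lower calls in atorvastatin against WTD was 754 and 352, but 582 and 479 with DESeq2's size factors in edgeR, 701 and 684 in DESeq2, 719 and 642 with only these groups fitted and 330 and 1022 with total counts. With total counts it was 5148 and 1101 in WTD against chow and 3241 and 987 in atorvastatin against chow. Signs turned with total counts for mt-Nd5 (0.19), Tfam (0.10), Polrmt (0.23), Lrpprc (0.25) and Grsf1 (0.042) in WTD against chow, for Gm10925 (-0.10) and Gm28439 (-0.051) in atorvastatin against WTD and for mt-Nd1 (0.11) and mt-Nd2 (0.12) in atorvastatin against chow. mt-Nd2 in the last comparison also ranged from -0.044 to 0.031 when 1 mouse was left out. In atorvastatin against WTD, Gm29216 turned to 0.13 with missed weak genes as covariate, and Gm28661 to 0.055 with limma-voom, 0.033 without the 9 libraries and 0.057 with the covariate. The cause of these changes was not tested.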
